A study of Homo sapiens with 6 samples.

Results

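The genes described here are 10 components of the NF2, YAP and TEAD pathway (NF2, LATS1, YAP1, WWTR1, TEAD1, TEAD2, TEAD3, TEAD4, CTGF and CYR61), of 36532 genes in the transcript files. They were picked by gene symbol, and the TPM (a transcript level corrected for transcript length and scaled to the same total in every library) of all transcripts of a gene was summed in each library. The samples were 4 human cell lines of atypical teratoid rhabdoid tumor (AT/RT), CHLA 04 and CHLA 06 with 2 technical replicates each and CHLA 02 and CHLA 05 with 1 library each, all grown with 20 ng/mL EGF, 20 ng/mL basic FGF and 2% B-27 in DMEM:F12. The 6 libraries were of stranded total RNA. The labels call these pairs technical replicates, and whether the libraries of a pair came from 1 RNA extract or from separate cultures is not given in the sources used here. Each line was therefore counted as 1 biological sample, and the spread within a pair may be technical or may include that between cultures. Where a line has 2 values, replicate 1 comes before replicate 2. No line with restored SMARCB1 and no non-tumor control was among them, so each value is a level in a tumor line and not a response to the loss of SMARCB1.

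NF2 encodes merlin, a membrane-linked tumor suppressor that activates the Hippo kinases, of which LATS1 is the last in the chain. LATS kinases phosphorylate the coactivators YAP (YAP1) and TAZ (WWTR1), which are then held in the cytoplasm or degraded. Unphosphorylated YAP and TAZ enter the nucleus and bind the TEAD factors, which carry the DNA-binding domain, and CTGF and CYR61 are the secreted matricellular proteins most often read as their targets. Loss of NF2 is best known from schwannoma and meningioma. RNA levels do not show phosphorylation or where a protein is in the cell, and neither was measured in these libraries.

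Between 10265899 and 20520229 reads per library fell on transcripts, with the fewest in CHLA 04 replicate 1. The technical replicates were not alike for every gene. By a two-sided exact binomial test of the reads of a gene in the 2 libraries of a line (Benjamini-Hochberg adjusted p under 0.05), 43.6% of 19311 genes differed between the replicates of CHLA 04 and 29.3% of 19810 between those of CHLA 06. This test compares libraries, not cell lines, and its errors cover counting alone. On the log2(TPM + 2) scale the median absolute difference between replicates was 0.30 in CHLA 04 and 0.16 in CHLA 06, and 4.26% and 1.03% of the 14827 genes with a mean TPM of at least 1 differed by 1 or more. The label gene of the tumor, SMARCB1, was at 13.5 to 26.2 TPM in the 6 libraries. The paper describes these lines as without SMARCB1 expression, citing earlier work, so some RNA of the gene was counted in lines described that way. Protein was not measured in these libraries, and the lesion of each line was not analysed here.

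All 10 genes were detected in all 6 libraries, at 112 or more reads each. The coactivator YAP1 had the highest mean level (342 TPM over the 4 lines), followed by TEAD1 (247 TPM), TEAD2 (133 TPM) and WWTR1 (132 TPM), and TEAD3 had the lowest (10.5 TPM). The levels of NF2, LATS1, WWTR1 and TEAD3 stayed within less than 1 on the log2(TPM + 2) scale between the highest and the lowest line, as did TEAD4 at 0.90. YAP1, TEAD1, TEAD2, CTGF and CYR61 differed by more. These 5 of 10 genes stand beside 45.2% of all 14827 genes past the same difference of 1, so the pathway genes as a group varied between lines about as often as other genes. A difference of 2 or more was seen for CTGF alone, 1 of 10, beside 17.8% of all genes.

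**Figure D1:**
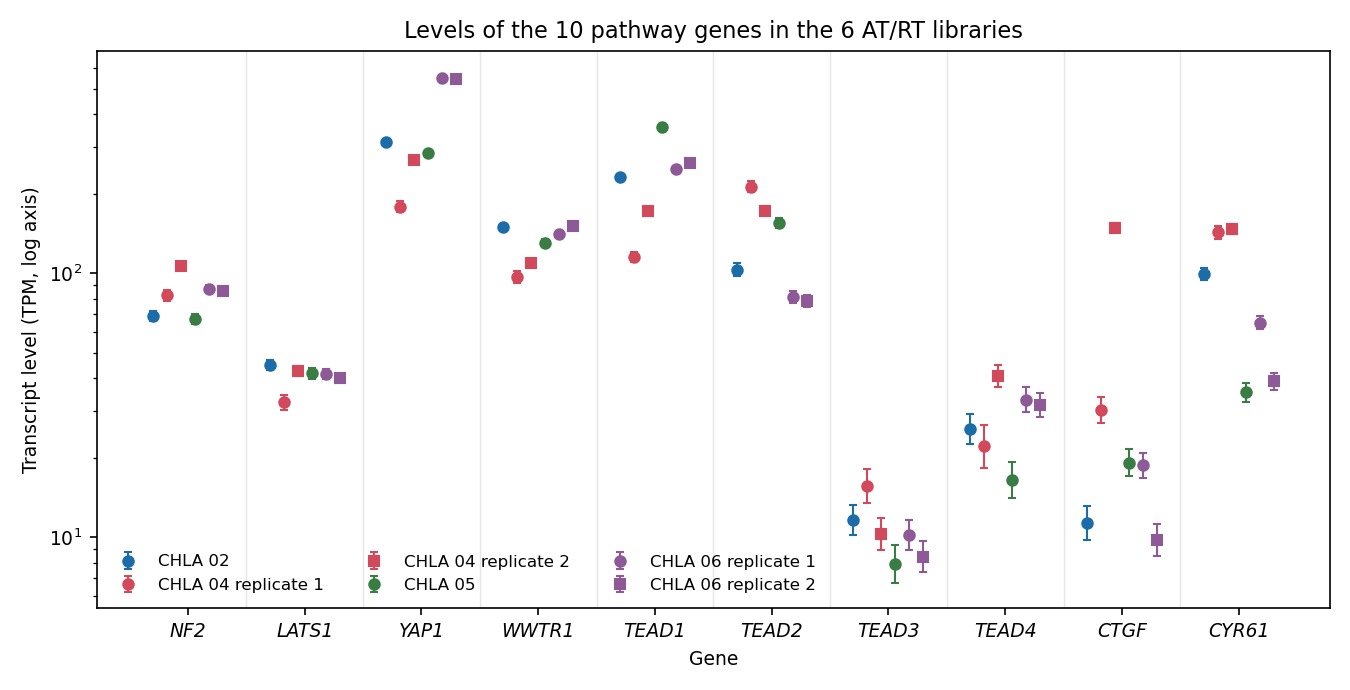
Levels of the 10 pathway genes (TPM, log axis) in the 6 libraries, with color for the cell line and circles and squares for technical replicates 1 and 2; bars are 95% Wilson intervals of the reads and cover counting error only. YAP1 is highest in both CHLA 06 libraries, NF2 and LATS1 lie in a narrow band, and the CTGF points of CHLA 04 lie at 30.2 and 149 TPM.

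NF2 (ENSG00000186575, chromosome 22, 29603556 to 29698598, plus strand, GRCh38) was at 69.1 TPM for CHLA 02, 82.5 and 106 TPM for CHLA 04, 67.0 TPM for CHLA 05, and 87.2 and 85.6 TPM for CHLA 06. The lines fell into a higher pair, CHLA 04 and CHLA 06, and a lower pair, CHLA 02 and CHLA 05. The 95% Wilson intervals of CHLA 02 and CHLA 05 overlapped. That of CHLA 04 replicate 1 (78.5 to 86.7 TPM) overlapped both of CHLA 06, while that of CHLA 04 replicate 2 (103 to 110 TPM) lay above all other libraries. Without this library CHLA 06 was the highest line, and the range was 0.36 in place of 0.48 on the log2(TPM + 2) scale. The mean of CHLA 04 was 94.4 ± 16.8 TPM (SD, n = 2 technical replicates), and the highest line was 1.41 times the lowest. Merlin RNA was therefore present in all 4 lines at a similar level.

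The forms of NF2 transcripts differed more than their sum. Merlin is made in isoforms with different C-terminal ends: isoform 1 ends in the last exon of the gene, and in isoform 2 a 45-bp exon before it (chromosome 22, 29683020 to 29683064) brings its own stop codon. The coding parts of these alternative ends are shown because they are what distinguishes the proteins, in lower case on the plus strand, 5′ to 3′, read from GRCh38.
NF2 45-bp exon, coding part chr22:29683020-29683052: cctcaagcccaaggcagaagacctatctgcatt
NF2 last exon, coding part chr22:29694752-29694799: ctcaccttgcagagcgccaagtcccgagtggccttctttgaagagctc
Transcripts with the 45-bp exon, or with an exon that overlaps it, made up 75.0% of the NF2 level of transcripts spanning this place for CHLA 02, 52.1% and 43.3% for CHLA 04, 46.8% for CHLA 05, and 86.4% and 82.2% for CHLA 06. The exon was thus in most NF2 transcripts of CHLA 02 and CHLA 06, and in about as many as skipped it in CHLA 04 and CHLA 05. The mean was 47.7 ± 6.21% (SD, n = 2) in CHLA 04 and 84.28 ± 2.998% (SD, n = 2) in CHLA 06, a difference larger than the spread of the technical replicates.

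A second coding exon of NF2, 123 bp long, in the part of the gene that encodes the FERM domain (the fold that docks merlin at the membrane), went the opposite way.
NF2 123-bp exon, chr22:29639090-29639212: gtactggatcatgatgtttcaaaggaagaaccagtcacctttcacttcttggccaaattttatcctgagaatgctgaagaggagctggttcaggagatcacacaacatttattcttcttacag
It was contained in 65.3% of the NF2 transcript level for CHLA 02, 78.7% and 85.1% for CHLA 04, 84.6% for CHLA 05, and 46.3% and 47.6% for CHLA 06. More of the NF2 level of CHLA 06 thus lay on annotated transcripts without this exon than on those with it. The sharpest single contrast was transcript ENST00000338641, with the full 123-bp exon and the isoform 1 end, whose share of NF2 ran from 11.7% to 53.9% over the libraries. It was at 37.0 and 57.3 TPM for CHLA 04 and 10.2 and 14.5 TPM for CHLA 06. ENST00000361452, without the 123-bp exon and with the 45-bp exon or one that overlaps it, was at 11.4 and 10.9 TPM for CHLA 04 and 43.5 and 42.9 TPM for CHLA 06. The opposite directions of both exons thus largely reflect the same transcripts and are not separate results. These shares rest on how the authors' mapper divided reads among overlapping Ensembl transcripts, and reads across the exon junctions were not analysed here.

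LATS1 (ENSG00000131023, chromosome 6, 149658153 to 149718256, minus strand) was the most even of the 10 genes. It was at 44.9 TPM for CHLA 02, 32.4 and 42.5 TPM for CHLA 04, 41.8 TPM for CHLA 05, and 41.6 and 40.0 TPM for CHLA 06. No neighbors in the order of the lines were separated beyond their spread, and its range of 0.25 on the log2(TPM + 2) scale was smaller than the difference of 0.37 between the replicates of CHLA 04.

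YAP1 (ENSG00000137693, chromosome 11, 102110461 to 102233423, plus strand) was highest in CHLA 06. Its level was 313 TPM for CHLA 02, 179 and 267 TPM for CHLA 04, 285 TPM for CHLA 05, and 548 and 545 TPM for CHLA 06. Both CHLA 06 libraries were above all others, and the order of the lines was CHLA 06, CHLA 02, CHLA 05 and CHLA 04. The step from CHLA 05 to CHLA 04 (61.7 TPM) was smaller than the difference between the replicates of CHLA 04 (88.7 TPM), although their intervals did not overlap (277 TPM at the lowest for CHLA 05 and 275 TPM at the highest for CHLA 04). CHLA 06 was at 2.45 times the level of CHLA 04 (a range of 1.29 on the log2(TPM + 2) scale). The range was 1.03 without CHLA 04 replicate 1 and 1.60 without CHLA 04 replicate 2.

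WWTR1 (ENSG00000018408, chromosome 3, 149517235 to 149736714, minus strand), the gene of TAZ, did not show this pattern. It was at 149 TPM for CHLA 02, 96.7 and 109 TPM for CHLA 04, 130 TPM for CHLA 05, and 140 and 151 TPM for CHLA 06. CHLA 02 and CHLA 06 did not differ beyond their spread, CHLA 05 was below both, and CHLA 04 was lowest. Per transcript, YAP1 exceeded WWTR1 in every library, by 1.85 to 2.45 times in CHLA 02, CHLA 04 and CHLA 05 and by 3.90 and 3.60 times in the libraries of CHLA 06.

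YAP1 has alternative coding exons that are used in protein isoforms with 1 or 2 WW domains, the modules that bind PPxY motifs in LATS kinases and other partners. The 114-bp exon adds the second WW domain and the 48-bp exon lengthens the transactivation part. Both are shown on the plus strand, 5′ to 3′.
YAP1 114-bp exon, chr11:102186018-102186131: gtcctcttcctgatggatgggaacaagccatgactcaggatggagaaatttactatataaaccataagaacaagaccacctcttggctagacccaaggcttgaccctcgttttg
YAP1 48-bp exon, chr11:102209517-102209564: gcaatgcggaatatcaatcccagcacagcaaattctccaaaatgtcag
Among YAP1 transcripts that span the place of an exon (at least 93.8% of the gene level in each library), the 114-bp exon was in 77.3% of the level for CHLA 02, 57.2% and 65.6% for CHLA 04, 76.3% for CHLA 05, and 74.9% and 69.1% for CHLA 06. Transcripts for the form with 2 WW domains were therefore the larger share in all 6 libraries, with the lowest values in CHLA 04. The 48-bp exon was in 24.5% for CHLA 02, 19.6% and 18.5% for CHLA 04, 26.4% for CHLA 05, and 31.7% and 30.9% for CHLA 06, so that most YAP1 transcripts lacked it.

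**Figure D2:**
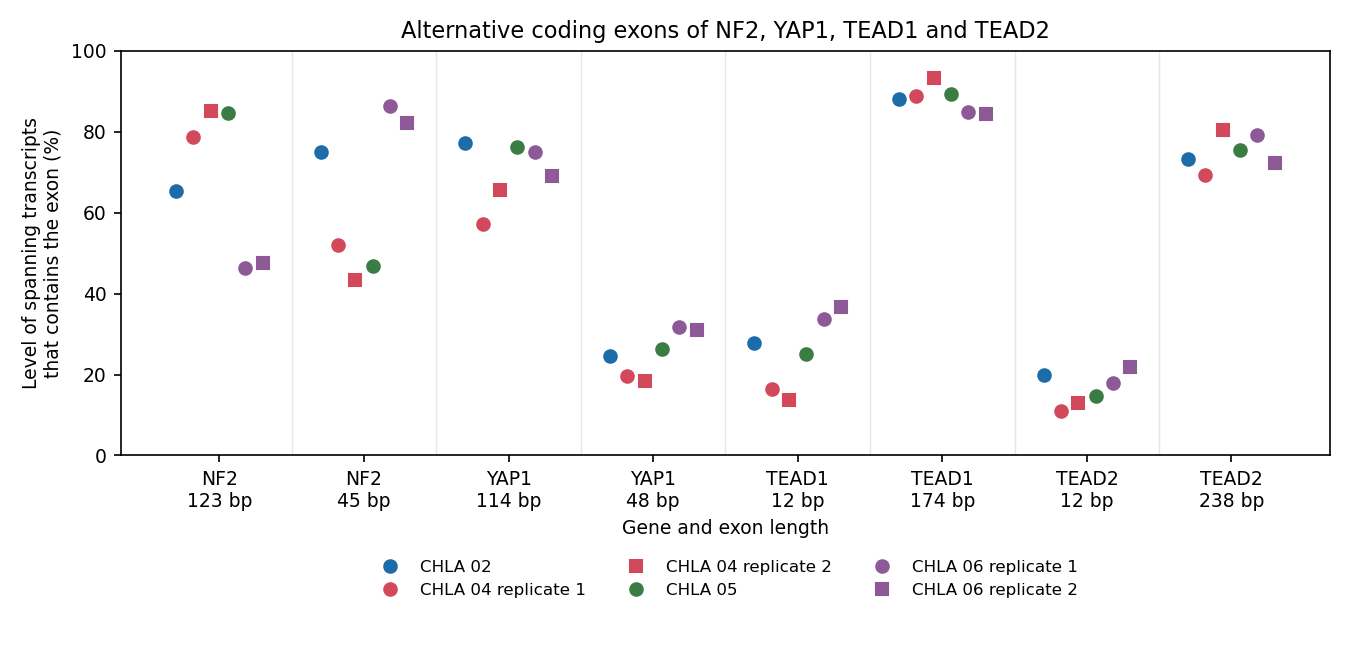
Share (%) of the level of transcripts spanning the place of an alternative coding exon of NF2, YAP1, TEAD1 or TEAD2 that contains the exon, by library (color for cell line, circles and squares for technical replicates 1 and 2). The NF2 exons of 123 bp and 45 bp separate CHLA 06 from CHLA 04 and CHLA 05 in opposite directions, and the 174-bp and 238-bp exons show little difference.

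The DNA-binding partners were dominated by TEAD1 and TEAD2. TEAD1 (ENSG00000187079, chromosome 11, 12674591 to 12944483, plus strand) was at 232 TPM for CHLA 02, 116 and 172 TPM for CHLA 04, 357 TPM for CHLA 05, and 248 and 261 TPM for CHLA 06. CHLA 05 was above and CHLA 04 below every other library, and all neighbors in the order differed beyond their spread. TEAD2 (ENSG00000074219, chromosome 19, 49340595 to 49362457, minus strand) ran in another order, at 103 TPM for CHLA 02, 213 and 173 TPM for CHLA 04, 155 TPM for CHLA 05, and 81.3 and 78.5 TPM for CHLA 06. Here CHLA 04 was highest and CHLA 06 lowest, again with no overlap between neighbors, but the step from CHLA 04 to CHLA 05 (37.4 TPM) was smaller than the difference between the replicates of CHLA 04 (40.2 TPM).

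The summed level of the 4 TEAD genes was similar in CHLA 02, CHLA 04 and CHLA 06 (366 to 396 TPM) and higher in CHLA 05 (537 TPM), while its make-up differed. TEAD1 was 62.3% of the sum for CHLA 02, 66.5% for CHLA 05, and 66.6% and 68.7% for CHLA 06. In CHLA 04 it was 31.6% and 43.5%, with TEAD2 at 58.1% and 43.6%. CHLA 04 was thus the line in which TEAD2 reached or exceeded TEAD1, and in replicate 2 the levels of both genes were nearly equal (a ratio of 0.996).

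**Figure D3:**
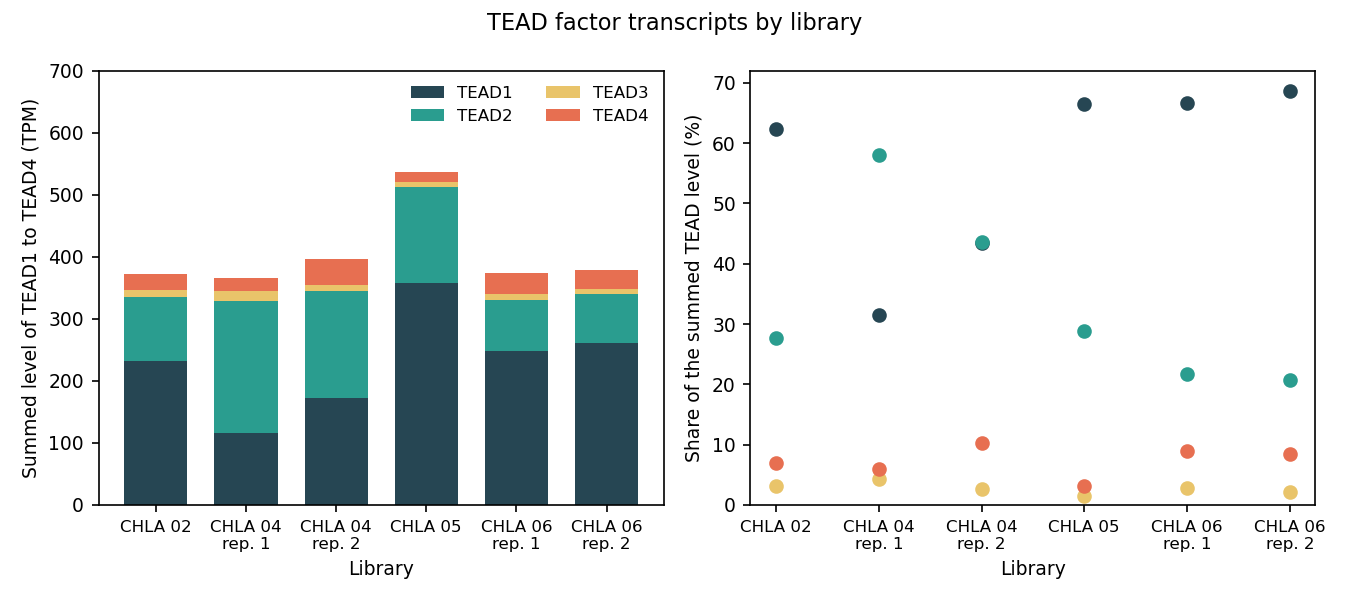
Left, summed level of TEAD1 to TEAD4 (TPM) in each library, stacked by gene; right, the share (%) of each gene in that sum. TEAD2 makes up 58.1% and 43.6% of the sum in the CHLA 04 libraries and 20.7% to 28.9% in the others.

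TEAD4 (ENSG00000197905, chromosome 12, 2959330 to 3040673, plus strand) was at 25.7 TPM for CHLA 02, 22.1 and 40.8 TPM for CHLA 04, 16.5 TPM for CHLA 05, and 33.2 and 31.8 TPM for CHLA 06. Its lowest line was CHLA 05, the line with the most TEAD1, and the neighbors among the other lines did not differ beyond their spread. Its range of 0.90 passed 1 after quantile normalization (1.14) and after median-ratio scaling (1.06). TEAD3 (ENSG00000007866, chromosome 6, 35473597 to 35497076, minus strand) was at 11.6 TPM for CHLA 02, 15.7 and 10.3 TPM for CHLA 04, 7.93 TPM for CHLA 05, and 10.2 and 8.45 TPM for CHLA 06, and no neighbors in its order were separated. CHLA 04 was its highest line, but without CHLA 04 replicate 1 CHLA 02 was.

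TEAD1 and TEAD2 each have a 12-bp coding exon that was used in a minority of transcripts. They are shown on the strand of each gene, 5′ to 3′, because they occur in paralogous genes and were least used in the same line. Of their 12 bases, 5 are equal.
TEAD1 12-bp exon, chr11:12878889-12878900, plus strand: gtaacaagcatg
TEAD2 12-bp exon, chr19:49355959-49355970, minus strand: gctctgaacgtg
The TEAD1 transcripts that span the place of the exon held only 38.4% to 52.9% of the TEAD1 level. Of the level of these transcripts, the exon was in 27.7% for CHLA 02, 16.5% and 13.7% for CHLA 04, 25.0% for CHLA 05, and 33.8% and 36.8% for CHLA 06. Of the whole TEAD1 level it was in 11.1% for CHLA 02, 8.71% and 5.67% for CHLA 04, 9.59% for CHLA 05, and 13.8% and 14.6% for CHLA 06. The TEAD2 exon, whose place at least 99.5% of the gene level spans, was in 19.9% for CHLA 02, 11.03% and 12.9% for CHLA 04, 14.7% for CHLA 05, and 17.9% and 21.8% for CHLA 06. Both exons were least used in CHLA 04, where the libraries of that line did not overlap those of any other. The same holds for the 48-bp exon of YAP1. These exons were singled out after their values were seen, and bear no test.

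CTGF (ENSG00000118523, named CCN2 in current annotation, chromosome 6, 131948176 to 131951373, minus strand) had the widest range of the 10 genes, and the size of that range depended on 1 library. CTGF was at 11.3 TPM for CHLA 02, 30.2 and 149 TPM for CHLA 04, 19.2 TPM for CHLA 05, and 18.7 and 9.76 TPM for CHLA 06. Replicate 2 of CHLA 04 was far above the other 5 libraries, which lay between 9.76 and 30.2 TPM. The replicates of CHLA 04 differed 4.92-fold, by 299 and 2403 reads (adjusted p = 6.51e-205, exact binomial test). Among the 14827 genes, CTGF had the largest excess of replicate 2 over replicate 1 on the log2(TPM + 2) scale. In CHLA 06, replicate 2 was at 0.521 times replicate 1 (339 and 195 reads, adjusted p = 4.44e-12, exact binomial test).

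The order of the lines for CTGF therefore has to be read with this spread. The mean of CHLA 04 was 89.5 ± 83.9 TPM (SD, n = 2 technical replicates), and the range between CHLA 04 and CHLA 02 was 2.78 on the log2(TPM + 2) scale. It was 1.28 without replicate 2 of CHLA 04 and 3.50 without replicate 1. CHLA 04 stayed the highest line with either replicate alone. The intervals of its libraries lay above that of CHLA 05, the next line, but this step was smaller than the difference between the replicates of CHLA 04. Below it the order was CHLA 05, CHLA 06 and CHLA 02. CHLA 06 was not separated from either of these neighbors, while the interval of CHLA 05 lay above that of CHLA 02.

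CYR61 (ENSG00000142871, now CCN1, chromosome 1, 85580761 to 85583962, plus strand) was also highest in CHLA 04, and there its replicates were close. It was at 99.5 TPM for CHLA 02, 143 and 147 TPM for CHLA 04, 35.4 TPM for CHLA 05, and 64.9 and 38.9 TPM for CHLA 06. CHLA 04 and CHLA 02 were separated from the rest, while CHLA 06 and CHLA 05 were not separated from each other. The range was 1.98, or 4.10 times between CHLA 04 and CHLA 05. The replicates of CHLA 04 gave 1312 and 2305 reads (adjusted p = 0.44, exact binomial test), a ratio of 1.03 in TPM, so that the CTGF difference between these libraries was not shared by CYR61. In CHLA 06 both genes were lower in replicate 2, CYR61 at 0.599 times replicate 1 (adjusted p = 1.85e-26, exact binomial test).

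Of the 10 pathway genes, 9 passed the exact binomial test between the replicates of CHLA 04 (all but CYR61) and 5 between those of CHLA 06 (YAP1, WWTR1, TEAD1, CTGF and CYR61), beside 43.6% and 29.3% of all genes. These shares, also set beside the lists below, include genes with few reads, which can hardly pass. Among genes with at least 10 reads over the replicates of a line, the shares were 57.7% for CHLA 04 and 39.8% for CHLA 06. The pathway genes had at least 112 reads in each library. A difference of 1 or more on the log2(TPM + 2) scale was seen for CTGF in CHLA 04 alone, beside 4.26% of genes, and for none in CHLA 06, beside 1.03%. The genes with the largest deficit in replicate 2 of CHLA 04 against replicate 1 were the immediate early genes FOS (128 and 5.46 TPM) and FOSB (56.5 and 3.92 TPM), with EGR1 (61.3 and 11.2 TPM) at rank 4. These encode transcription factors induced within minutes by serum, growth factors or handling, and CTGF and CYR61 are induced quickly as well. Of 13 listed immediate early genes, 10 passed the exact binomial test between the replicates of CHLA 04, 9 of them lower in replicate 2, beside 43.6% of all genes. In CHLA 06, 6 of 13 passed it, beside 29.3%, 5 lower in replicate 2 and 1 higher (FOSB). EGR2 was at 14.1 and 3.41 TPM, the third largest deficit of replicate 2 among all genes, JUNB was at 251 and 154 TPM and JUN at 72.1 and 50.1 TPM, all lower in the library in which CTGF and CYR61 were lower. FOS was at 63.8 and 65.3 TPM and EGR1 at 58.7 and 54.6 TPM there, and neither passed (adjusted p = 0.73 and 0.22, exact binomial test). In the list of YAP and TAZ targets described below, which includes CTGF and CYR61, 21 genes had a mean TPM of at least 1. Of these, 16 passed the test in CHLA 06, beside 29.3% of all genes, 13 lower in replicate 2 and 3 higher. In CHLA 04, 8 passed, beside 43.6%, 4 lower in replicate 2 and 4 higher. The part of the immediate early differences in the CTGF and CYR61 values was not tested.

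**Figure D4:**
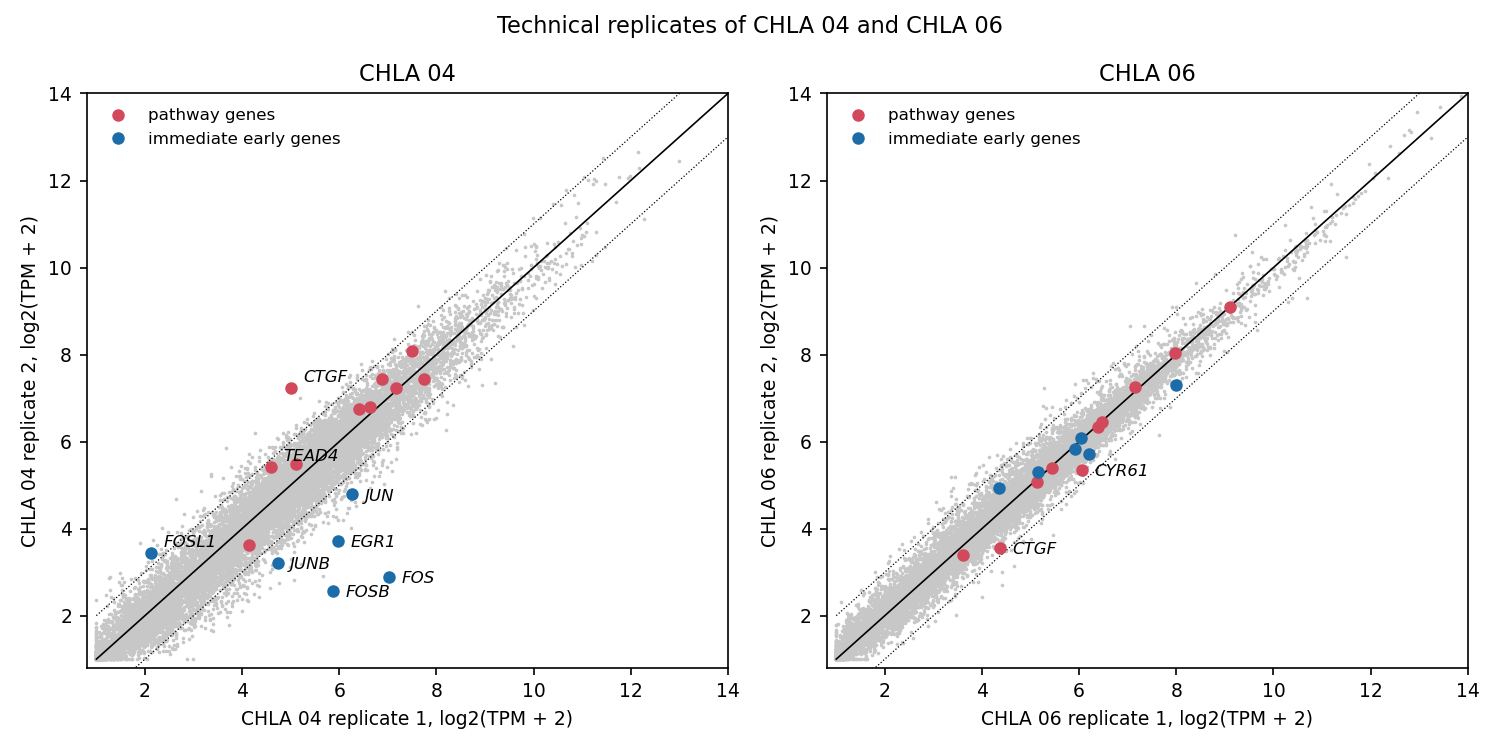
Technical replicate 2 against replicate 1 of CHLA 04 (left) and CHLA 06 (right), both axes log2(TPM + 2); gray points are genes with a mean TPM of at least 1, red the pathway genes and blue 6 immediate early genes. The solid line marks equality and dotted lines a difference of 1; CTGF lies above and FOS, FOSB, EGR1, JUN and JUNB below the band in CHLA 04.

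The promoter of CTGF is shown because it holds the TEAD element GGAATG more often than nearly all others. RefSeq promoter windows (GRCh38.p14) were at hand for 7 of the 10 genes, and GGAATG was searched on both strands in the 250 bases before each start. CTGF had 3 matches, beginning 169, 104 and 95 bases before the start (in capitals, gene strand, 5′ to 3′), and YAP1 had 1, at 162 bases. NF2, LATS1, WWTR1, TEAD2 and TEAD3 had none in any of their windows. Of all 35116 windows of this length, 11.9% held at least 1 match and 0.0826% held 3 or more.
CTGF promoter, chr6:131951373-131951622, minus strand: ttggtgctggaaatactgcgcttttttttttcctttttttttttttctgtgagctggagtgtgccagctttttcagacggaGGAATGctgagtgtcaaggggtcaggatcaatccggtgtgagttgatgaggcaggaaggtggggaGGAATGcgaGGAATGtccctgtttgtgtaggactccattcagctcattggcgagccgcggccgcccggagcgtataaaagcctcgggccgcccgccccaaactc
The window held no match to TGANTCA, the AP-1 element to which FOS and JUN proteins bind (6.57% of all windows held at least 1), and none to the CArG box of the factor SRF (1.16% of all windows). A match describes the letters alone, and binding was not measured.

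In the 6 pairs of lines, the pathway genes past a difference of 1 were few, and most involved CHLA 04. CHLA 04 and CHLA 06 differed for 4 of 10 genes (YAP1, TEAD2, CTGF and CYR61), beside 32.2% of all genes. CHLA 04 and CHLA 05 differed for 3 (TEAD1, CTGF and CYR61), beside 18.0%. Both of these CTGF calls rested on CHLA 04 replicate 2: without it, CTGF differed by 0.60 between CHLA 04 and CHLA 05 and by 0.99 between CHLA 04 and CHLA 06 on the log2(TPM + 2) scale. CHLA 02 differed from CHLA 04 for CTGF alone, beside 18.5%, and from CHLA 05 for CYR61 alone, beside 21.1%. No gene passed between CHLA 02 and CHLA 06, beside 10.2%, or between CHLA 05 and CHLA 06, beside 27.6%. The pairs share lines and are not independent of each other. After median-ratio scaling, YAP1 and TEAD4 passed between CHLA 05 and CHLA 06.

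Many other targets of YAP and TAZ had another order of lines than CTGF and CYR61. In a list of 22 target genes that includes these, 21 had a mean TPM of at least 1 and 18 of them a range of at least 1, beside 45.2% of all genes; without CTGF and CYR61 it was 16 of 19. Their median range was 2.35, beside 0.91 for all genes. The highest line was CHLA 06 for 11 genes, CHLA 05 for 5, CHLA 04 for 4 and CHLA 02 for 1. Over all 14827 genes it was CHLA 06 for 3500, CHLA 05 for 4375, CHLA 04 for 5340 and CHLA 02 for 1612. NT5E, an ecto-nucleotidase that makes adenosine, was at 426 TPM for CHLA 02, 0.464 and 0.282 TPM for CHLA 04, 11.5 TPM for CHLA 05, and 603 and 788 TPM for CHLA 06.

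The same split was seen for MYOF, a membrane repair protein, which was at 200 TPM for CHLA 02, 3.37 and 3.91 TPM for CHLA 04, 92.8 TPM for CHLA 05, and 358 and 294 TPM for CHLA 06. TGFB2, a TGF-beta ligand, was at 63.2 TPM for CHLA 02, 0.862 and 0.616 TPM for CHLA 04, 18.0 TPM for CHLA 05, and 191 and 141 TPM for CHLA 06. FOXF2, a mesenchymal forkhead factor, was at 159 TPM for CHLA 02, 5.08 and 5.30 TPM for CHLA 04, 27.5 TPM for CHLA 05, and 358 and 229 TPM for CHLA 06. In these 4 genes, which are among those of widest range, CHLA 04, the line with the highest CTGF and CYR61, was the lowest, and CHLA 06, the line with the highest YAP1, was the highest. They do not stand for the list: the lowest line was CHLA 04 for 7 of the 21 genes, CHLA 05 for 7, CHLA 06 for 5 and CHLA 02 for 2. Over all 14827 genes the lowest line was CHLA 04 for 3812, CHLA 05 for 2830, CHLA 06 for 5658 and CHLA 02 for 2527. NUAK2, a stress-responsive kinase, ran the other way, at 16.8 TPM for CHLA 02, 28.8 and 19.0 TPM for CHLA 04, 37.1 TPM for CHLA 05, and 0.338 and 0.544 TPM for CHLA 06. AMOTL2, a YAP-binding angiomotin, was likewise lowest in CHLA 06 (19.6 and 12.1 TPM, beside 61.9 and 55.0 TPM for CHLA 04), as was CRIM1 (19.8 and 20.1 TPM, beside 44.5 and 67.2 TPM). ANKRD1, a cardiac ankyrin repeat protein that is also a common YAP readout, had reads in CHLA 06 replicate 2 alone (0.177 TPM). With 4 lines no correlation across lines was computed.

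Several cell type markers differed between the same lines, and others did not. The summed level of 8 mesenchymal markers was 1301 TPM for CHLA 02, 28.6 and 17.4 TPM for CHLA 04, 70.6 TPM for CHLA 05, and 2299 and 1359 TPM for CHLA 06. Among them COL3A1 was at 841 TPM for CHLA 02, 2.91 and 0.231 TPM for CHLA 04, and 1332 and 628 TPM for CHLA 06. LUM was low in every library, at most at 1.67 TPM with a mean of 0.518 TPM. Its 0 in both libraries of CHLA 04 is therefore not a clear difference. PDGFRB and COL1A2 of the same list ran the other way, highest in CHLA 05 (23.4 and 7.12 TPM) and lowest in CHLA 06. There PDGFRB was at 4.45 and 3.85 TPM, and COL1A2 at most at 0.0259 TPM. The keratins KRT8 and KRT18 were high in CHLA 02 and CHLA 06 (55.1 to 81.6 and 24.5 to 28.2 TPM) and at most 0.188 TPM in the other lines, and the 4 epithelial markers together ranged from 0.111 TPM for CHLA 04 replicate 1 to 110 TPM for CHLA 06 replicate 2. CDH1, the E-cadherin of that list, was instead at 12.4 TPM for CHLA 05, 0 for CHLA 02 and at most 0.0739 TPM for CHLA 04 and CHLA 06. The 5 glial markers summed to 58.5 TPM for CHLA 02, 101 and 90.0 TPM for CHLA 04, 255 TPM for CHLA 05, and 0.417 and 0.0601 TPM for CHLA 06. The sums of CHLA 02 and CHLA 04 were nearly all GFAP and AQP4. OLIG1, OLIG2 and S100B were at 31.9, 14.2 and 15.2 TPM for CHLA 05. In the other lines they were at most at 2.28, 1.54 and 0.147 TPM, with OLIG1 and OLIG2 at 0 in both libraries of CHLA 06. The part of these differences in the target values was not tested, and fewer cells of a type cannot be told apart from less RNA per cell in these bulk libraries.

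Of the other markers, VIM was the most abundant of the 6 neural progenitor genes (4629 to 19464 TPM) and was highest in CHLA 06. CHLA 06 was instead the lowest line for 5 of the 6. FABP7 was at 756 to 4102 TPM in CHLA 02, CHLA 04 and CHLA 05 and at 0.566 and 1.43 TPM in CHLA 06. SOX9 was at 228 TPM for CHLA 05 and at most 0.0657 TPM for CHLA 06, and PAX6 at 36.9 and at most 0.937 TPM. NES was at 5.21 to 27.6 TPM over the libraries, and SOX2 at most at 4.03 TPM. Neuronal markers summed to 325 to 1134 TPM, nearly all of it TUBB3 and, outside CHLA 06, MAP2. The rest of that list, DCX, STMN2 and ELAVL4, was at most at 0.654, 1.21 and 2.94 TPM. Endothelial markers summed to at most 4.06 TPM and leukocyte markers to at most 22.7 TPM, nearly all of it CD68, with AIF1 and CD3E at 0 throughout.

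**Figure D5:**
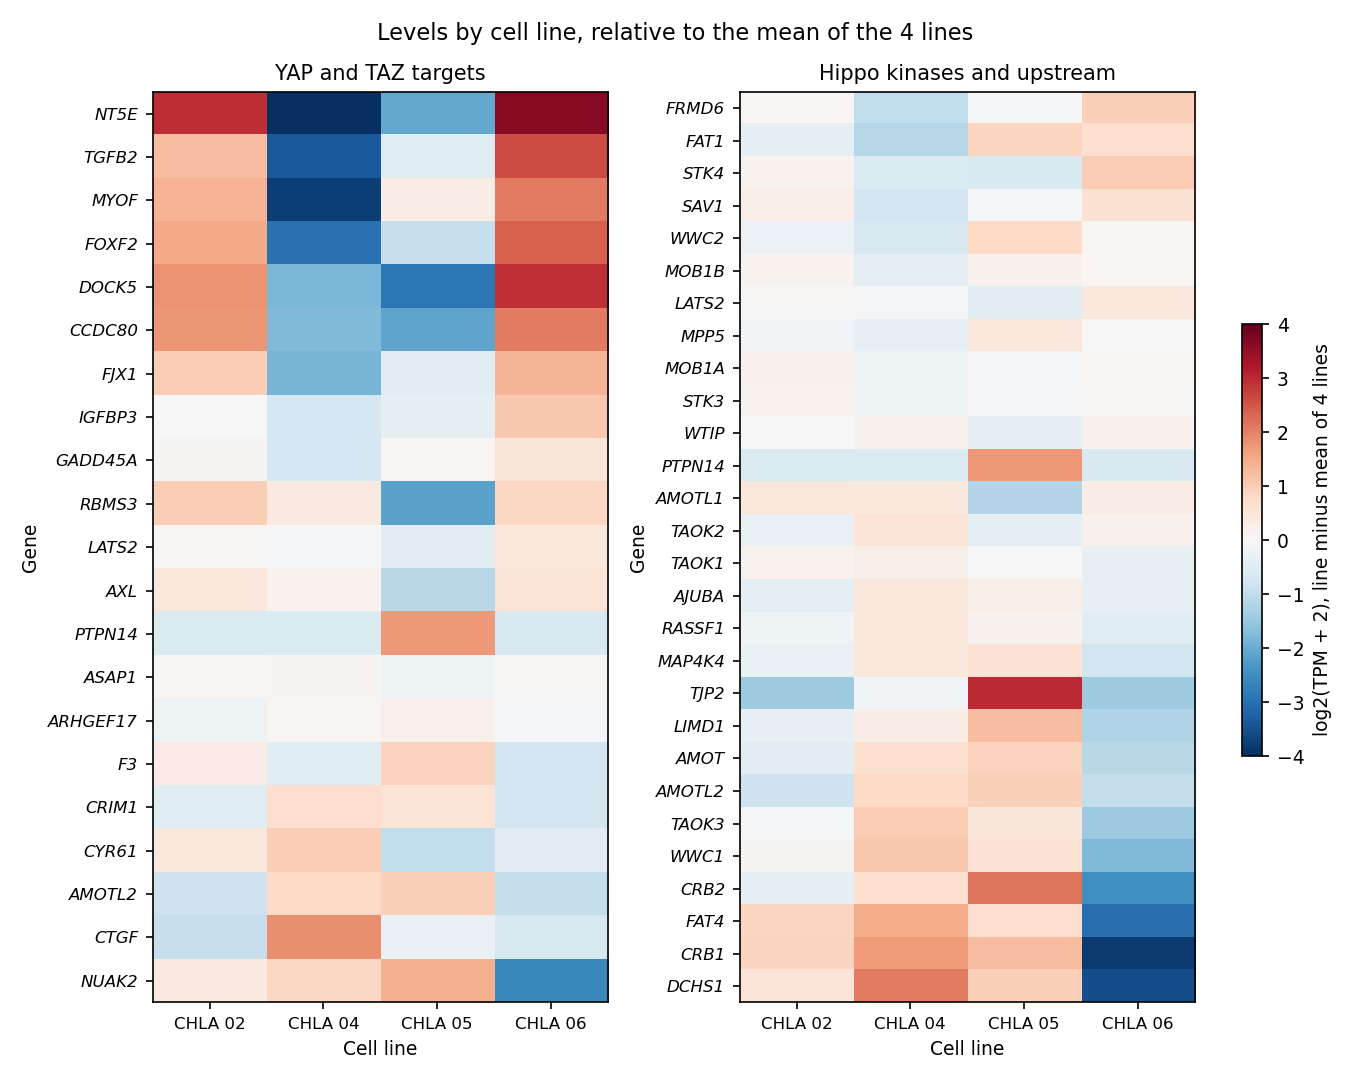
Levels of YAP and TAZ target genes (left) and Hippo kinases and upstream genes (right) with a mean TPM of at least 1 in the 4 lines, as log2(TPM + 2) minus the mean of the lines; the color scale ends at -4 and 4. Rows are sorted by CHLA 06 minus CHLA 04, so genes low in CHLA 04 and high in CHLA 06 stand together by the sorting. In such a block of targets, from NT5E to FJX1, CHLA 02 is high as well, and DOCK5 and CCDC80 are lowest in CHLA 05. At the other end of the sorting, DCHS1, CRB1, FAT4 and CRB2 are low in CHLA 06.

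Upstream of YAP, the widest ranges were those of membrane inputs. Of 32 listed genes, 28 had a mean TPM of at least 1, and 18 had a range of at least 1 (median range 1.63), beside 45.2% of all genes. The kinase STK3 (MST2) was at 31.6 to 42.9 TPM in all libraries, whereas STK4 (MST1) was at 47.1 to 89.9 TPM in CHLA 02, CHLA 04 and CHLA 05 and at 141 and 185 TPM in CHLA 06. CHLA 06 was the lowest line for 13 of the 28 genes, beside 5658 of all 14827 genes. Those with the widest ranges were DCHS1, the protocadherin ligand of FAT4, and CRB1 and CRB2, apical polarity proteins.

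DCHS1 was at 33.9 TPM for CHLA 02, 133 and 74.8 TPM for CHLA 04, 47.2 TPM for CHLA 05, and 0.144 and 0.228 TPM for CHLA 06. CRB1 was at 84.0 TPM for CHLA 02, 204 and 92.7 TPM for CHLA 04, 110 TPM for CHLA 05, and 0.964 and 1.55 TPM for CHLA 06. FAT4, the cadherin to which DCHS1 binds and one of the 3 most abundant genes of the list, was at 213 to 395 TPM in the other lines and at 19.8 and 9.84 TPM in CHLA 06. The most abundant, the giant cadherin FAT1, was at 880 and 660 TPM for CHLA 06, 870 TPM for CHLA 05, 363 TPM for CHLA 02, and 256 and 173 TPM for CHLA 04. MAP4K4, a kinase that can phosphorylate LATS, was at 115 to 295 TPM.

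Among 9 genes whose proteins compete for or restrain YAP and TEAD, 7 had a mean TPM of at least 1 and 3 of these had a range of at least 1, beside 45.2% of all genes. VGLL3, which binds TEAD factors at the site used by YAP, had the widest range, at 78.2 TPM for CHLA 02, 120 and 109 TPM for CHLA 04, 413 TPM for CHLA 05, and 0.154 and 0.126 TPM for CHLA 06. The line with the most YAP1 thus had almost no VGLL3, and the line with the most TEAD1 had the most. VGLL4, a repressor of the same site, was at 34.8 to 102 TPM, highest in CHLA 05. The 14-3-3 genes that hold phosphorylated YAP in the cytoplasm were abundant everywhere, YWHAE at 488 to 1002 TPM, YWHAZ at 483 to 695 TPM and YWHAB at 132 to 267 TPM, and YWHAH was highest in CHLA 06 (271 and 228 TPM). VGLL1 was at 0 in all 6 libraries.

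CTGF and CYR61 are also known as immediate early genes. All 13 other genes of that kind that were listed had a mean TPM of at least 1, and 10 had a range of at least 1, beside 45.2% of all genes, with CHLA 02 the highest line for 7 and CHLA 04 the highest for none. Over all 14827 genes, CHLA 02 was the highest line for 1612 and CHLA 04 for 5340. The tally of the 13 genes depended on CHLA 04 replicate 2. Without it CHLA 02 was highest for 5 and CHLA 04 for 2, FOS (128 TPM, beside 123 TPM for CHLA 02) and JUN (74.8 TPM). JUNB was at 114 TPM for CHLA 02, 24.6 and 7.24 TPM for CHLA 04, 37.5 TPM for CHLA 05, and 251 and 154 TPM for CHLA 06. FOSB was at 73.2 TPM for CHLA 02 and 5.50 TPM for CHLA 05, and IER3 at 19.6 TPM for CHLA 02 and 0.597 TPM for CHLA 05.

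LTR elements, remnants of retroviruses and related sequences that the study counted separately, lay within 7 of the 10 genes. Their TPM is scaled over LTR elements alone and cannot be set against gene TPM. Of 83 elements, 23 had reads, none of them overlapping an annotated exon of the gene, and YAP1 held 1396 and TEAD1 593 of the 2122 reads. Elements on the strand of their gene were the minority (28 of 83) but held 2111 reads, against 11 reads in the 55 on the opposite strand. NF2 with 4 elements and TEAD2 with 11 had no reads there, and TEAD3, CTGF and CYR61 contained no element.

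The element with the most reads was THE1A-int in YAP1 (chr11:102126661-102128207, 517 reads), an internal part of a MaLR element. LTR48B in YAP1 (chr11:102207860-102208460, 486 reads) was at 111 LTR TPM for CHLA 02, 55.6 and 80.8 for CHLA 04, 146 for CHLA 05, and 235 and 195 for CHLA 06, lowest and highest in the same lines as YAP1 itself. MLT1O in TEAD1 (chr11:12696282-12696694, 285 reads) was at 77.0 LTR TPM for CHLA 02, 42.0 and 89.3 for CHLA 04, 189 for CHLA 05, and 174 and 135 for CHLA 06, highest for CHLA 05 as was TEAD1. Whether these reads came from the introns of the host transcript or from transcripts that begin in the elements was not tested.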

How the data were processed

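RNA of 4 AT/RT cell lines was sequenced as 125-bp stranded pairs in 6 libraries. Per the labels and the study's methods, the authors used CASAVA 1.8.2, FastQC and Trimmomatic on the reads, aligned to GRCh38 in CLC Genomics Workbench (default settings), and deposited TPM per Ensembl transcript and, scaled apart, per RepeatMasker LTR element. Whether counting used strand is not given in the sources used here.

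TPM times transcript length was a whole multiple of 1 step per library for at least 99.6% of values (within 0.05 read), which gave reads per gene and 95% Wilson intervals. Gene TPM was the sum over transcripts. Technical replicates were averaged, and levels compared as log2(TPM + 2) among genes with a mean TPM of at least 1. The labels call the pairs technical replicates, so each line was counted as 1 biological sample and no test between lines was made. The one test was the two-sided exact binomial test of reads between technical replicates, with Benjamini-Hochberg adjustment over all genes with a read, checked on simulated data. Because this test uses reads and TPM also depends on which transcripts the reads fall on, the direction of a small change can differ between them. Neighbors in an order were called separated where the spans of their intervals did not overlap. Alternative coding exons were those with at least 10 TPM both in transcripts with and without them, coding in GENCODE v44, and sequences came from GRCh38. The members and lists were chosen with earlier results of these data known. All members are named. Of each list of pathway, cofactor, target and immediate early genes, the 3 most abundant and the 3 of widest range were to be named, and further genes were chosen after their values were seen. The result of 1 list of cell type markers is not reported here. Alternatives were other pseudocounts, filters, scalings, transcripts, and leaving out each technical replicate. Python 3.11.15, pandas 2.3.3 and scipy 1.17.1 were used.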

Additional observations from a re-analysis of the deposited data

How the results depend on the processing

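Of the 10 genes, 5 passed a difference of 1 between lines. The count was 5 to 7 under the other pseudocounts, filters, scalings and transcript choices, 5 to 6 without each technical replicate, and 1 at a difference of 2. TEAD4 was the sixth gene with the higher technical replicate, with quantile normalization, with median-ratio scaling and without CHLA 04 replicate 1. With the most abundant transcript alone, NF2 (1.77, with CHLA 04 highest and CHLA 06 lowest), WWTR1 (1.05) and TEAD4 (1.15) passed and YAP1 did not (0.96). Between CHLA 02 and CHLA 04 the count went from 1 to 2 with the higher replicate and to 4 with the most abundant transcript, and was 1 to 2 without each replicate. Between CHLA 02 and CHLA 05 it went from 1 to 3 with the most abundant transcript. Between CHLA 02 and CHLA 06 it was 0 to 1 without each replicate (CYR61 without CHLA 06 replicate 1). Between CHLA 05 and CHLA 06 it went from 0 to 2 with quantile normalization, with median-ratio scaling and with the most abundant transcript, and between CHLA 04 and CHLA 05 it was 2 to 4 without each replicate. The cause of these shifts was not tested. Median-ratio factors ran from -0.12 to 0.10 on the log2 scale. With a median-ratio offset, 3 in place of 5 genes differed between the replicates of CHLA 06. The TPM filters leave the values of the 10 genes unchanged, and another pseudocount cannot change the order of the lines. Both are counted in the following tally, although neither could alter it. In all 120 values of the 10 genes under 12 alternatives, the line that was highest stayed above the one that was lowest, but these were still the highest and lowest of the 4 lines in only 106. The exceptions were NF2, LATS1, WWTR1, TEAD3, TEAD4 and CTGF; for CTGF, CHLA 06 was lowest without CHLA 06 replicate 1. No paired analysis was possible because the replicate numbers of CHLA 04 and CHLA 06 mark technical replicates of different lines, and no test between lines was made. Whether the replicates of a line are separate cultures is not given in the sources used here, so the spread between cultures is not known, and the lowest depth was that of CHLA 04 replicate 1.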

Other observations

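Besides CTGF, other genes were far higher in replicate 2 than in replicate 1 of CHLA 04, and those named here were chosen after their values were seen. They included the ETS factors ETV4 (10.7 and 55.7 TPM), ETV1 (17.2 and 71.8 TPM) and ETV5 (34.6 and 126 TPM), which are known outputs of FGF and ERK signaling, and EMP1 (4.21 and 23.8 TPM) and TNFRSF12A (8.32 and 36.4 TPM). FOSL1 was higher too (2.34 and 8.80 TPM), while FOS, FOSB, EGR1, JUN and JUNB were lower in replicate 2. ETV4, ETV1 and ETV5 passed the exact binomial test between the libraries (adjusted p = 1.01e-67, 2.34e-86 and 1.19e-236).

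By the distance between profiles of log2(TPM + 2) centered over the 4 lines, the 3 genes nearest to CTGF were SNCAIP (distance 0.54), DMBX1 (0.62) and PLEKHF1 (0.66), all highest in CHLA 04. SNCAIP was at 19.4 TPM in CHLA 04, and at 2.31, 4.31 and 1.28 TPM in CHLA 02, CHLA 05 and CHLA 06. Those nearest to CYR61 were TFAP2A-AS1 (0.097), SMURF2 (0.12), a ubiquitin ligase, and C1orf115 (0.17). The level of SMURF2 for CHLA 04 was 172 TPM, beside 111 TPM for CHLA 02, 43.8 TPM for CHLA 05 and 65.1 TPM for CHLA 06. The CTGF profile used the mean of CHLA 04, whose replicates were at 30.2 and 149 TPM. Distances without replicate 2 are not given. Profiles over 4 points are a description only.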
